A study of Mus musculus with 12 samples.

Results

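Collagen genes were taken as all protein-coding genes whose symbol is Col, a number, the letter a and a number. The count table held 44 of them among 43432 genes, namely 11 fibrillar collagens, 8 collagens of basement membranes and 25 other collagens. Poly-A RNA was sequenced from 12 samples of CR705, a line of mouse pancreatic cancer cells; they were taken as tumours because the text on RNA extraction names tumours. Of these, 6 came from wild-type cells (WT) and 6 from cells labelled AHRKO, in which the gene for the aryl hydrocarbon receptor is stated to be knocked out. The genotype is that of the CR705 cells. The labels name no host strain, age, sex or genotype, no site of the tumours and no number of knockout clones. Other protocol texts in the labels describe cultured cells given test compounds, so that the samples are tumours is an inference, and no label ties a compound to a sample. Nothing states that replicates came from separate animals, so p-values measure the spread between these samples only. The comparison addresses whether collagen RNA differed between tumours of AHRKO and WT cells.

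Collagens are proteins of helically wound chains that form the scaffold of the extracellular matrix. Fibrillar collagens build the banded fibrils of connective tissue, type IV collagens build the sheet of basement membranes under epithelia and around vessels, and the other collagens decorate fibrils, form microfibrils and anchoring fibrils or span the cell membrane. Pancreatic ductal cancers are known for a dense stroma rich in type I collagen, much of it made by fibroblasts.

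Library totals ran from 14772343 to 35881469 counts. Ahr was at 101 to 125 CPM (the depth-scaled count unit used throughout, after TMM scaling of library sizes) in WT and at 62.5 to 143 CPM in AHRKO, so its counts do not check the genotype labels. Markers of ductal epithelium were present (Krt8 at 237 to 1992 CPM), while the acinar enzyme genes Cpa1, Cela2a, Prss2, Pnlip and Ctrb1 were at or near 0 (at most 11 counts in a library). Another acinar enzyme gene, Cela1, was at 14.5 to 27.5 CPM in WT and 7.54 to 49.4 CPM in AHRKO. AHRKO replicate 1 stood apart. The summed CPM of 8 ductal markers was 697 in it, while WT libraries ran from 3478 to 4936 and AHRKO replicates 2 to 6 from 2977 to 4764. The summed CPM of 12 fibroblast markers that are not collagens was 5812 in it, while WT libraries ran from 1704 to 3709 and AHRKO replicates 2 to 6 from 1153 to 2534. For 8 endothelial markers the sum was 1648 CPM in it and at most 681 CPM elsewhere. For 8 leukocyte markers the sum was 2675 CPM in it, while AHRKO replicates 2 to 6 ran from 448 to 990 and WT from 264 to 481, and for 8 markers of pericytes and smooth muscle it was 1700 CPM in it and at most 716 elsewhere. Each test of a collagen gene is therefore given with and without this library. The ductal sum also hides differences among its 8 members, of which 7 had a negative and 1 a positive log2 fold change with all libraries. Krt19 was at 565 to 946 CPM in WT and 49.4 to 561 CPM in AHRKO. Sox9 was at 77.8 to 113 CPM in WT and 16.3 CPM in AHRKO replicate 1, but at 124 to 207 CPM in AHRKO replicates 2 to 6. In bulk RNA, fewer cells of a type and less RNA per cell cannot be told apart.

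Collagens made up a large share of the RNA of these tumours. They took from 2.43% to 5.28% of all counts in WT libraries, 6.95% in AHRKO replicate 1 and 1.53% to 3.19% in the other 5 AHRKO libraries. Leaving AHRKO replicate 1 aside, the groups overlapped through WT replicates 1 and 4 and AHRKO replicates 2 and 6. Col1a1, Col1a2 and Col3a1, which encode the chains of the main fibril collagens I and III, held 56.9% to 74.3% of collagen counts in a library. Of the 44 genes, 35 had enough counts to be tested. The 9 others were Col2a1, Col4a3, Col4a6, Col9a1, Col9a2, Col10a1, Col19a1, Col22a1 and Col25a1, all with 18 counts or fewer in every library except Col10a1. Col10a1, a collagen of hypertrophic cartilage, reached 115 counts (7.40 CPM) in AHRKO replicate 5 and 1.55 CPM in AHRKO replicate 2, and was at most 0.546 CPM elsewhere.

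Per kilobase of annotated exon, the most abundant collagen chain was Col1a1 at 1403 CPM per kb (mean of 12 libraries). Col3a1 followed at 780 and Col1a2 at 554 CPM per kb. Next were Col6a1 at 292, Col4a1 at 170, Col5a2 at 127 and Col5a1 at 125 CPM per kb. The exon length joins all annotated transcripts, so a gene with long alternative ends has a lower value per kb. The read-count ratio of Col1a1 to Col1a2, the chains of type I collagen, was 1.34 ± 0.08 in WT and 1.38 ± 0.12 in AHRKO (mean ± SD, n = 6 per group).

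With all 12 libraries, 4 of the 35 tested collagen genes rose and 3 fell in AHRKO tumours (edgeR's quasi-likelihood test, two-sided, Benjamini-Hochberg adjusted p under 0.05 over 15449 tested genes). These shares, 11.4% and 8.57%, lay below those over all tested genes, of which 15.9% rose and 13.6% fell. The genes that rose were Col9a3, Col6a5, Col6a6 and Col11a2, and those that fell were Col26a1, Col23a1 and Col27a1. None of the 7 exceeded 302 CPM in a library, and none of Col1a1, Col1a2, Col3a1, Col4a1, Col4a2, Col6a1, Col6a2 and Col6a3, the most abundant chains of types I, III, IV and VI, passed the test. The tested collagens had a median log2 fold change of -0.17, compared with 0.02 for all genes. With limma-voom and sample quality weights on the same 12 libraries, 7 collagens fell and 3 rose, where 19.1% of all tested genes fell and 19.9% rose; the added falls were Col5a1, Col5a3, Col6a1 and Col6a2.

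Without AHRKO replicate 1 the picture for the abundant chains was different: 13 collagens fell and 6 rose. That library was singled out from these same data, and the p-values of this fit do not allow for that choice. It was the highest AHRKO library for 24 of the 35 tested collagens, so leaving it out lowers the AHRKO mean of those genes. The share that fell was 37.1%, against 17.8% of all tested genes in the same comparison, and the share that rose was 17.1%, against 19.1%. The 10 genes added to those that fell were Col1a1, Col1a2, Col3a1, Col5a1, Col5a2, Col5a3, Col6a1, Col6a2, Col6a3 and Col12a1, and the 2 added to those that rose were Col4a5 and Col17a1. The 7 genes called with all libraries were called in the same direction without it, and also in each fit that left out 1 other library. The median log2 fold change of the tested fibrillar collagens was -0.39 with all libraries and -0.92 without AHRKO replicate 1.

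**Figure D1:**
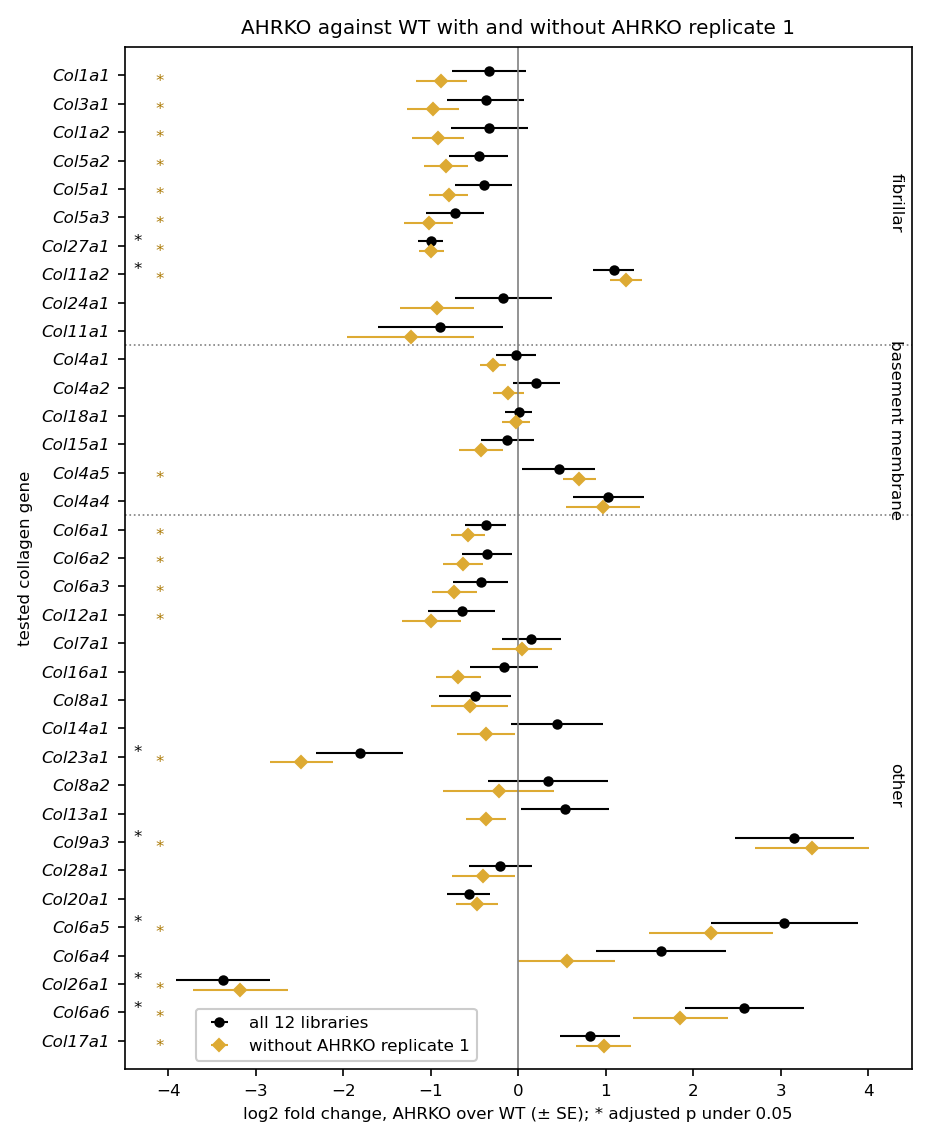
Log2 fold change (AHRKO over WT, x axis, ± SE) of the 35 tested collagen genes (y axis), in 3 classes and ordered within a class by level per kb, with all 12 libraries (black circles) and without AHRKO replicate 1 (yellow diamonds); asterisks mark an adjusted p under 0.05. Without that library the abundant fibrillar and type VI chains moved left and passed the test, for example Col1a1 from -0.34 to -0.88, while Col27a1 stood at -0.99 without it and at nearly the same value with it.

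Type I collagen is the main fibril protein of tumour stroma. Col1a1 (ENSMUSG00000001506, mm10 chromosome 11, 94936224 to 94953042, plus strand) was at 6354 CPM in the lowest WT library, 9913 at the median and 14491 in the highest. In AHRKO it was at 3490 in the lowest library, 6234 at the median and 20880 in replicate 1. The groups overlapped: 5 AHRKO libraries lay below the WT median, 3 of them below every WT library, and AHRKO replicate 1 lay above every WT library. The log2 fold change was -0.34 ± 0.42 (SE; edgeR adjusted p = 0.575) and, without AHRKO replicate 1, -0.88 (adjusted p = 0.0313).

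Col1a2 (chromosome 6) encodes the partner chain of Col1a1, and Col3a1 (chromosome 1) the chain of the finer type III fibrils. Col1a2 was at 4454, 7448 and 10910 CPM (lowest, median and highest) in WT and at 2397, 4183 and 16298 CPM in AHRKO. Col3a1 was at 4373, 8359 and 12800 CPM in WT and at 2742, 4770 and 18004 CPM in AHRKO. In both genes 3 AHRKO libraries lay below every WT library and replicate 1 lay above. Their log2 fold changes were -0.33 ± 0.44 and -0.37 ± 0.44 (SE; edgeR adjusted p = 0.599 and 0.551), and without AHRKO replicate 1 they were -0.92 and -0.98 (adjusted p = 0.0300 and 0.0223).

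Type V collagen chains join type I chains inside fibrils and limit their width. Col5a1, which shares exon bases with antisense transcripts, ran from 800 to 1648 CPM in WT and from 463 to 2023 in AHRKO, with 4 AHRKO libraries below every WT library. Col5a2 ran from 932 to 1985 CPM in WT and from 470 to 2215 in AHRKO. Col5a3 ran from 349 to 1019 CPM in WT and from 208 to 714 in AHRKO, again with 4 AHRKO libraries below every WT library. Without AHRKO replicate 1 their log2 fold changes were -0.80, -0.83 and -1.02 (edgeR adjusted p = 0.0165, 0.0236 and 0.0143), against -0.40, -0.45 and -0.72 with it (adjusted p = 0.385, 0.335 and 0.113).

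Over the 10 tested fibrillar genes, 7 were below the WT median in all AHRKO libraries except replicate 1. Col27a1 was below it in all 6 and Col11a2 in none, while Col24a1 was below it in 4. The share of all tested genes with the pattern of those 7 was not counted. Fibroblast markers were also highest in AHRKO replicate 1. Of the 12, 5 fell (41.7%, against 17.8% of all tested genes) and 0 rose (against 19.1%) without AHRKO replicate 1, and none passed with all libraries (edgeR), where their median log2 fold change was -0.10 and, without that library, -0.58. The part of fibroblast number in the collagen values was not tested.

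**Figure D2:**
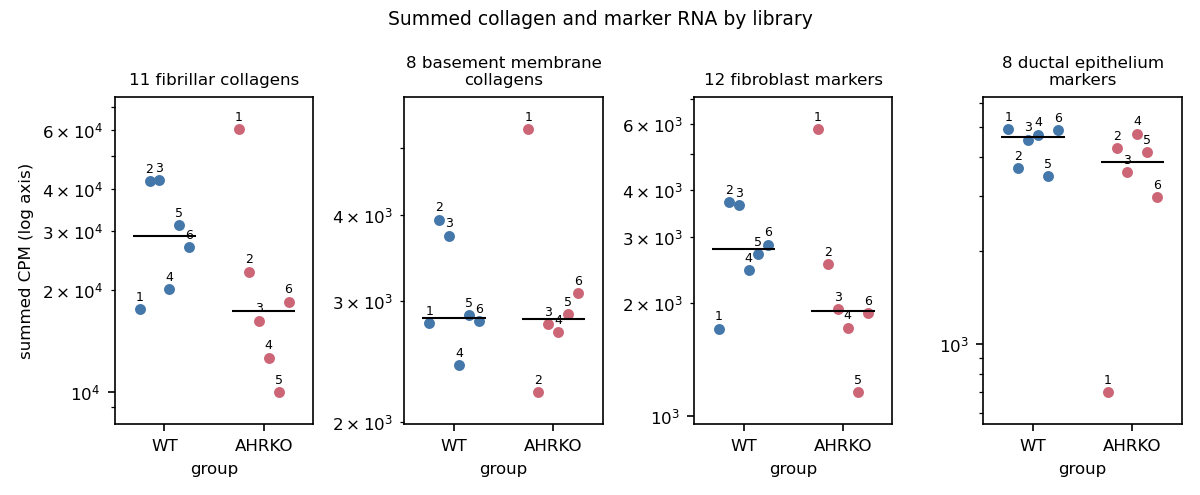
Summed CPM (y axis, log scale) of 11 fibrillar collagens, 8 basement membrane collagens, 12 fibroblast markers and 8 ductal epithelium markers in each library; points are libraries with their replicate number and lines are group medians. AHRKO replicate 1 was highest for the first 3 sums (60321, 5320 and 5812 CPM) and lowest for the ductal markers (697 CPM).

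Col27a1 encodes a fibrillar collagen with a short, interrupted helix that is known from cartilage. It was the collagen with the smallest adjusted p with all libraries. Col27a1 (ENSMUSG00000045672, mm10 chromosome 4, 63214004 to 63334991, plus strand) was at 197, 275 and 302 CPM (lowest, median and highest) in WT and at 91.0, 135 and 156 CPM in AHRKO. The groups did not overlap, and AHRKO replicate 1, at 130 CPM, lay within the range of the other AHRKO libraries. Col27a1 fell by 1.00 ± 0.14 on the log2 scale (SE; edgeR adjusted p = 0.000644), the adjusted p was 0.000488 without AHRKO replicate 1, and the log2 fold change ran from -1.06 to -0.91 when single libraries were left out.

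Col11a2 encodes a chain of type XI collagen, a minor fibril collagen of cartilage. Its levels were 6.43, 8.55 and 13.3 CPM in WT and 9.79, 21.6 and 25.1 CPM in AHRKO. Replicate 1 was the lowest AHRKO library and the only one within the WT range. Col11a2 rose by 1.09 ± 0.24 (SE; edgeR adjusted p = 0.0054), and by 1.23 without AHRKO replicate 1 (adjusted p = 0.000487). Its partner chain Col11a1 was at 3.24 to 19.8 CPM in WT and 0.285 to 11.6 CPM in AHRKO, which gave -0.89 ± 0.71 (SE, log2 scale; adjusted p = 0.367), and -1.23 without AHRKO replicate 1 (adjusted p = 0.199). Col24a1, the remaining tested fibrillar collagen, was at 7.06 to 22.1 CPM in WT and 2.25 to 34.9 CPM in AHRKO (-0.17 ± 0.55, adjusted p = 0.839). Without AHRKO replicate 1, where it was highest, Col24a1 was at -0.93 (adjusted p = 0.103). The summed CPM of 6 chondrocyte markers, among them Sox9, was 158 to 337 in WT and 61.9 to 295 in AHRKO. Of these, Matn1, Hapln1 and Cnmd were at no more than 4, 1 and 3 counts in a library. Acan was at 70.1 to 233 CPM in WT and 44.9 to 123 CPM in AHRKO. A part of cartilage cells in the collagen values was not tested.

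**Figure D3:**
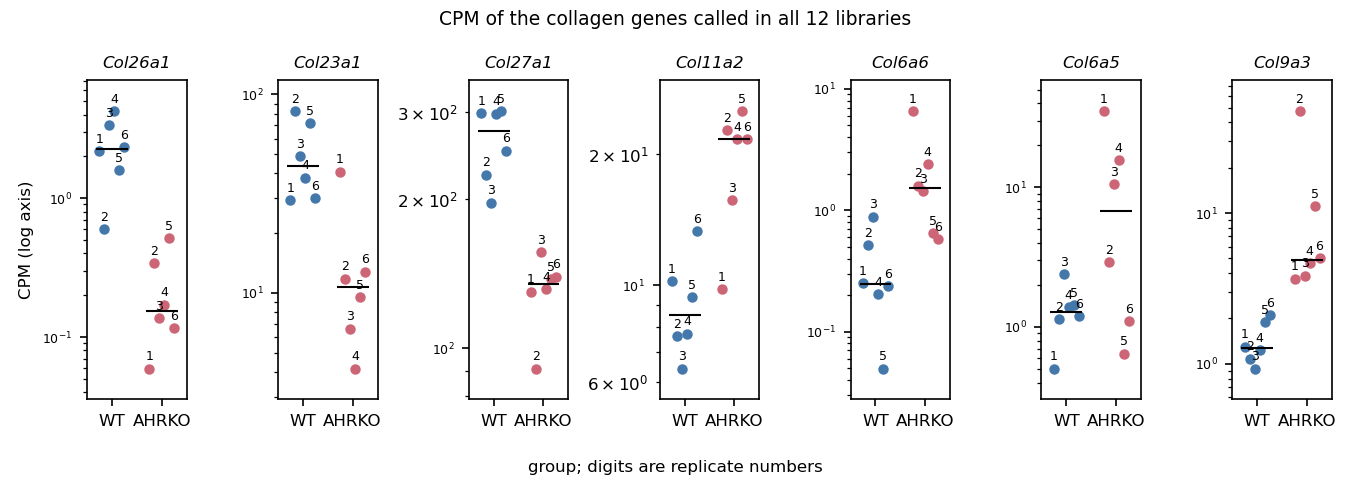
CPM (y axis, log scale, a separate axis for each gene) of the 7 collagen genes called with all 12 libraries, by group (x axis); points are libraries with their replicate number and lines are group medians. Col26a1, Col27a1 and Col9a3 had no overlap between groups, whereas Col6a5, Col6a6, Col11a2 and Col23a1 did.

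Basement membrane collagens showed no call with all libraries, and the groups overlapped in each of the 6 tested. Col4a1, the main network chain with Col4a2, was at 1043, 1165 and 1613 CPM in WT and 883, 1074 and 2295 CPM in AHRKO. Its log2 fold change was -0.03 ± 0.23 (SE; edgeR adjusted p = 0.948) and without AHRKO replicate 1, -0.29 (adjusted p = 0.151). Col4a2 was at 534, 596 and 937 CPM in WT and 558, 643 and 1579 CPM in AHRKO, at 0.21 ± 0.27 (adjusted p = 0.591) with all libraries and -0.11 (adjusted p = 0.636) without AHRKO replicate 1. Both genes lie on chromosome 8, where 826 genes were tested and had a median of -0.31 on the log2 scale.

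Col18a1 and Col15a1 encode collagens of the basement membrane zone, and the end of the former is released as endostatin. Col18a1 was at 597 to 864 CPM in WT and 511 to 929 CPM in AHRKO (log2 fold change 0.004 ± 0.16, edgeR adjusted p = 0.987), and without AHRKO replicate 1 its log2 fold change was -0.031 (adjusted p = 0.895). Col15a1 was at 209 to 493 CPM in WT and 205 to 611 CPM in AHRKO (-0.13 ± 0.30, adjusted p = 0.784), or -0.43 without that library (adjusted p = 0.193). In both genes AHRKO libraries lay on both sides of the WT range.

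The minor type IV chains are found in the basement membranes of particular tissues such as the kidney. Col4a5, a chain mutated in Alport syndrome, was at 26.7, 35.5 and 54.3 CPM in WT and 49.2 to 79.4 CPM in AHRKO replicates 2 to 6, but at 5.87 CPM in AHRKO replicate 1, where ductal markers were lowest too. Its log2 fold change was 0.46 ± 0.42 (edgeR adjusted p = 0.427), and it rose by 0.70 without AHRKO replicate 1 (adjusted p = 0.0122). Col4a4 was low, at 0.0841 to 1.14 CPM in WT and 0.752 to 1.54 CPM in AHRKO (1.03 ± 0.40, adjusted p = 0.0717), or 0.97 without AHRKO replicate 1 (adjusted p = 0.0921). Col4a3 and Col4a6 were not tested, with at most 10 and 15 counts in a library.

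Col4a1 and Col4a2 are neighbours transcribed in opposite directions from a shared start region, and their annotated exons share 22 bases. Their read-count ratio was 1.88 ± 0.11 in WT and 1.61 ± 0.09 in AHRKO (mean ± SD, n = 6 per group). WT ratios ran from 1.72 to 1.96 and AHRKO ratios from 1.45 to 1.71, so the groups did not overlap, though the highest AHRKO and the lowest WT library were close. Of the 9 chain ratios formed, this was the only one without overlap, and no test was run on the ratios because it was singled out after its values were seen. The other ratios among them included Col3a1 to Col1a1 at 0.82 in both groups and Col6a1 to Col6a2 at 1.38 in WT and 1.40 in AHRKO.

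**Figure D4:**
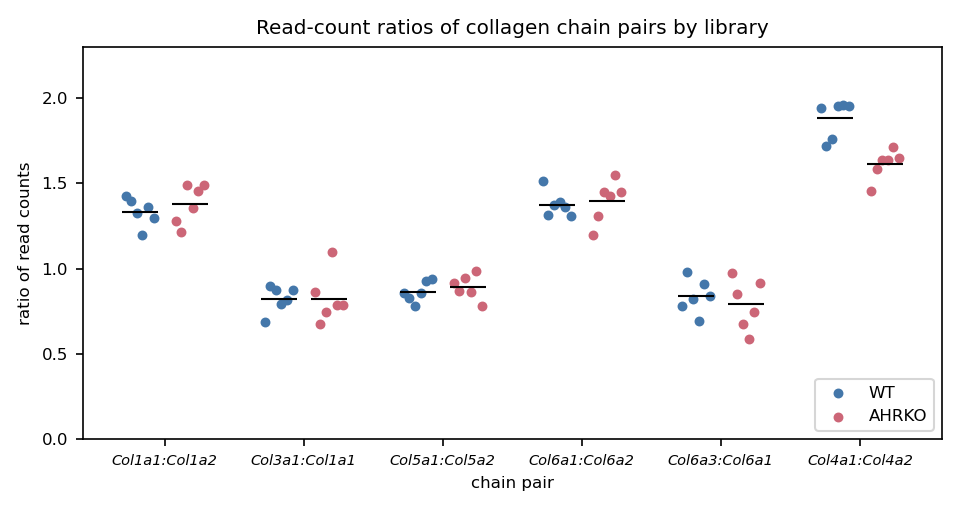
Read-count ratio (y axis, from 0) of 6 collagen chain pairs (x axis) in each library; points are libraries, blue for WT and red for AHRKO, and lines are group means. Only the Col4a1 to Col4a2 ratio separated the groups, at 1.72 to 1.96 in WT and 1.45 to 1.71 in AHRKO.

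Type VI collagen forms beaded microfibrils around cells, and its main chains are Col6a1, Col6a2 and Col6a3. Col6a1 was at 964, 1437 and 1873 CPM in WT and 655, 987 and 1831 CPM in AHRKO. Col6a2 was at 638 to 1427 CPM in WT and 423 to 1530 in AHRKO, and Col6a3 at 755 to 1832 in WT and 488 to 1780 in AHRKO. For each of these genes AHRKO replicates 2 to 6 lay below the WT median and replicate 1 above it. Log2 fold changes were -0.37 ± 0.23, -0.36 ± 0.28 and -0.43 ± 0.31 (SE; edgeR adjusted p = 0.243, 0.359 and 0.326), and -0.57, -0.63 and -0.73 without AHRKO replicate 1 (adjusted p = 0.0354, 0.0478 and 0.0420).

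The other type VI chains, Col6a4, Col6a5 and Col6a6, are neighbours on chromosome 9 and were at low levels, and 2 of them rose. Col6a5 was at 0.504, 1.29 and 2.38 CPM in WT and 0.643, 6.74 and 35.2 CPM in AHRKO. AHRKO replicates 1, 2, 3 and 4 lay above all WT libraries, while replicates 5 and 6 lay below the WT median. Col6a5 rose by 3.04 ± 0.84 on the log2 scale (SE; edgeR adjusted p = 0.0176), by 2.20 without AHRKO replicate 1 (adjusted p = 0.0287), and was not called with limma-voom and sample weights (1.36, adjusted p = 0.115) or with a replicate block (1.92, adjusted p = 0.187).

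Col6a6 was at 0.0496, 0.245 and 0.886 CPM in WT and 0.579, 1.52 and 6.59 CPM in AHRKO. It rose by 2.58 ± 0.68 (edgeR adjusted p = 0.0137) and by 1.85 without AHRKO replicate 1 (adjusted p = 0.0193). Col6a4 was at 0.168 to 2.23 CPM in WT and 0.772 to 12.6 CPM in AHRKO and did not pass (1.63 ± 0.74, adjusted p = 0.115), and without AHRKO replicate 1 its log2 fold change was 0.55 (adjusted p = 0.458). All 3 genes had their highest value in AHRKO replicate 1.

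Col9a3 encodes a chain of type IX collagen, which coats cartilage fibrils. It was at 0.932, 1.27 and 2.09 CPM in WT and 3.68, 4.85 and 47.5 CPM in AHRKO, with no overlap between groups. It rose by 3.16 ± 0.68 on the log2 scale (SE; edgeR adjusted p = 0.00531), and by 2.00 (adjusted p = 0.00295) without AHRKO replicate 2, the highest library. Without AHRKO replicate 1 it rose by 3.36 (adjusted p = 0.00224). Skeletal muscle markers were highest in AHRKO replicate 2 too (a sum over 5 genes of 265 CPM, against at most 7.95 in the others). The part of muscle RNA in the Col9a3 value of AHRKO replicate 2 was not tested. The partner chains Col9a1 and Col9a2 were not tested, at no more than 5 and 18 counts in a library. Col9a3 shares 234 exon bases with Tcfl5 on the other strand, and the strand setting of the counting is not given, so some reads could belong to Tcfl5. Tcfl5 was at 0.294 to 2.63 CPM in WT and 0.129 to 5.16 CPM in AHRKO (log2 fold change 0.02, edgeR adjusted p = 0.989). It was at 5.16 CPM in AHRKO replicate 1, where Col9a3 was lowest in AHRKO, and at 1.26 CPM in AHRKO replicate 2, where Col9a3 was highest. The part of Tcfl5 reads in the Col9a3 values was not tested.

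Col23a1 and Col13a1 encode collagens that span the cell membrane. Col23a1 (ENSMUSG00000063564, mm10 chromosome 11, 51289920 to 51583918, plus strand) was at 29.3, 43.5 and 82.6 CPM in WT. It was at 4.16 to 12.8 CPM in AHRKO replicates 2 to 6 and at 40.9 CPM in AHRKO replicate 1, the only one within the WT range. Col23a1 fell by 1.81 ± 0.50 (SE; edgeR adjusted p = 0.0171), and without AHRKO replicate 1 the log2 fold change was -2.48 (adjusted p = 0.000463). Col13a1 was at 6.93 to 14.8 CPM in WT, 5.53 to 10.3 CPM in AHRKO replicates 2 to 6 and 46.4 CPM in replicate 1 (0.53 ± 0.50, adjusted p = 0.447). Without that library the direction of Col13a1 turned, to -0.36 (adjusted p = 0.230). Col17a1, a hemidesmosome collagen of epithelia, was low throughout, at most 0.743 CPM in WT and 1.74 in AHRKO (0.82 ± 0.34, adjusted p = 0.0867), and rose by 0.97 without AHRKO replicate 1 (adjusted p = 0.0289).

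Col26a1 was low in WT and close to 0 in AHRKO. It was at 0.600, 2.26 and 4.25 CPM in WT and at 0.0593, 0.154 and 0.515 CPM in AHRKO, and the groups did not overlap. Col26a1 fell by 3.37 ± 0.54 (SE; edgeR adjusted p = 0.00118), and its log2 fold change was -3.18 without AHRKO replicate 1 (adjusted p = 0.00109). Together with Col27a1 it made 2 collagens lower without overlap, and Col9a3 was the 1 higher without overlap. Among all tested genes, 7.35% were lower and 6.03% higher without overlap.

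Col12a1, Col14a1, Col16a1 and Col20a1 encode collagens that coat fibrils, and none of them was called with all libraries. Only Col14a1 had a positive log2 fold change with all libraries, and each had a negative one without AHRKO replicate 1. Col12a1, which links fibrils to their surroundings, was at 928, 1193 and 2113 CPM in WT and 342, 770 and 1794 CPM in AHRKO (-0.65 ± 0.38, edgeR adjusted p = 0.223), and fell by 0.99 without AHRKO replicate 1 (adjusted p = 0.0364). Col14a1 was at 46.5 to 199 CPM in WT, 53.8 to 130 CPM in AHRKO replicates 2 to 6 and 452 CPM in replicate 1, and Col16a1 was at 118 to 270 CPM in WT and 70.6 to 417 CPM in AHRKO. Col14a1 was at 0.44 ± 0.52 with all libraries (adjusted p = 0.554) and turned to -0.37 without that library (adjusted p = 0.395). Col16a1 was at -0.17 ± 0.39 (adjusted p = 0.774) and -0.69 without it (adjusted p = 0.0552). Col20a1 was at 5.45 to 13.4 CPM in WT and 3.86 to 8.79 CPM in AHRKO (-0.57 ± 0.25, adjusted p = 0.103), or -0.47 without AHRKO replicate 1 (adjusted p = 0.143).

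Col7a1 forms the anchoring fibrils under epithelia, and Col8a1 and Col8a2 form hexagonal networks. Col7a1 was at 219 to 314 CPM in WT and 111 to 583 CPM in AHRKO, highest in replicate 2 (0.15 ± 0.33, edgeR adjusted p = 0.766). Col8a1 was at 158 to 339 CPM in WT and 34.6 to 314 CPM in AHRKO (-0.49 ± 0.41, adjusted p = 0.390), and Col8a2 was at 4.62 to 27.0 and 1.71 to 47.4 CPM (0.34 ± 0.68, adjusted p = 0.735). Col28a1 was at 3.70 to 15.3 CPM in WT and 3.10 to 12.3 CPM in AHRKO (-0.20 ± 0.37, adjusted p = 0.704). Without AHRKO replicate 1 the log2 fold changes were 0.040 for Col7a1 and -0.56 for Col8a1 (adjusted p = 0.938 and 0.341), -0.22 for Col8a2, which turned direction, and -0.40 for Col28a1 (adjusted p = 0.806 and 0.410). The SD of Col7a1 was 176 CPM in AHRKO and 42.1 CPM in WT, and that of Col8a1 was 99.8 and 69.7 CPM.

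**Figure D5:**
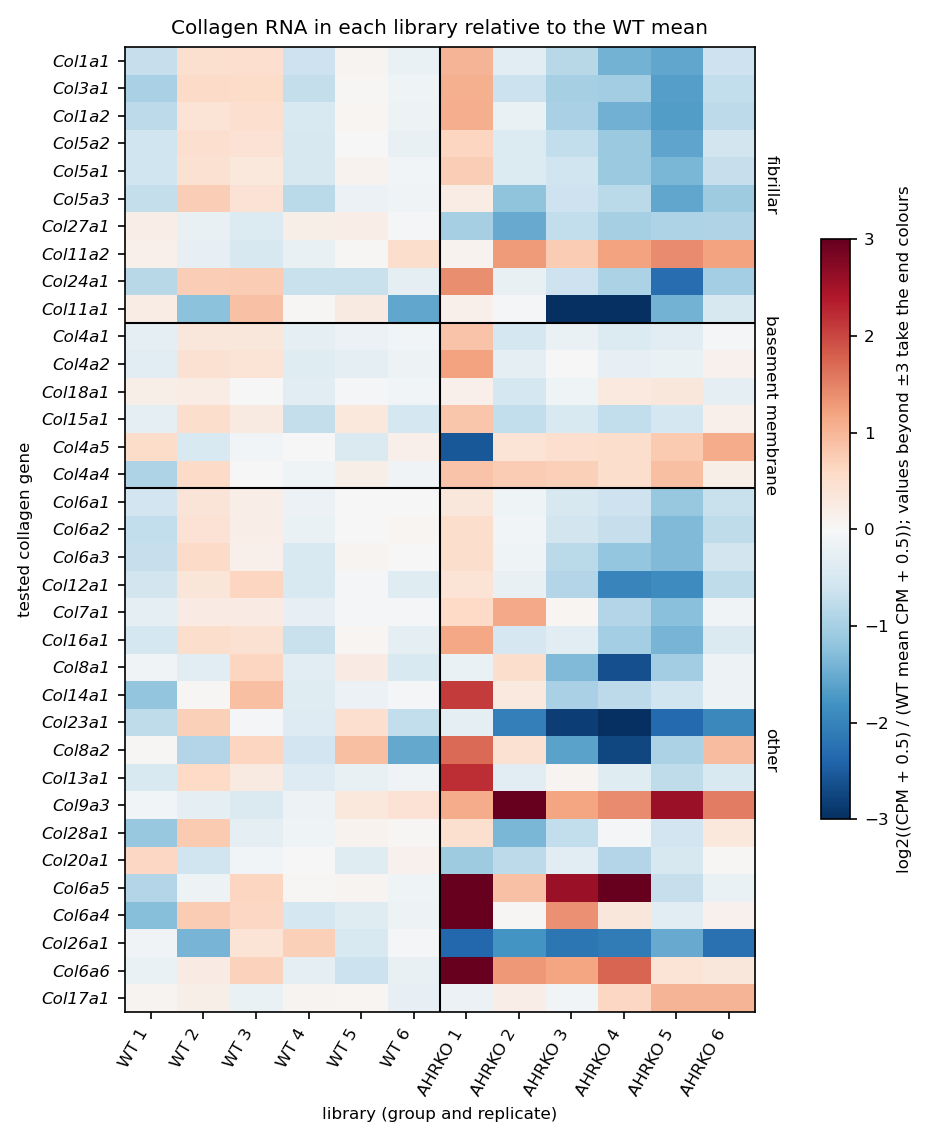
Level of the 35 tested collagen genes (rows, by class) in each library (columns) as log2 of CPM + 0.5 over the WT mean CPM + 0.5, red for higher and blue for lower. AHRKO replicate 1 was the highest of the 6 AHRKO libraries for 24 of the 35 genes, while 7 rows showed 1 direction in all AHRKO columns, higher for Col4a4, Col6a6, Col9a3 and Col11a2 and lower for Col23a1, Col26a1 and Col27a1. The share of all tested genes that were highest in AHRKO replicate 1 was not counted, nor was the share with 1 direction in all AHRKO columns.

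Start regions of genes from the main patterns are shown, each as the 250 bases before the RefSeq start (GRCm38), 5′ to 3′ on the strand of the gene. Col27a1 and Col23a1 stand for the genes that fell with all libraries, and Col3a1 and Col5a1 for the fibril chains that fell together without AHRKO replicate 1. These windows overlap no exon annotated in GENCODE, and that of Col27a1 lies downstream of the outermost start GENCODE gives the gene. Capitals mark every match, on either strand, to the CCAAT box, to the TATA motif TATAAA, to the GC box GGGCGG and to the motif TNGCGTG, the core of the element bound by the aryl hydrocarbon receptor.
Col27a1, chr4:63215162-63215411, plus strand: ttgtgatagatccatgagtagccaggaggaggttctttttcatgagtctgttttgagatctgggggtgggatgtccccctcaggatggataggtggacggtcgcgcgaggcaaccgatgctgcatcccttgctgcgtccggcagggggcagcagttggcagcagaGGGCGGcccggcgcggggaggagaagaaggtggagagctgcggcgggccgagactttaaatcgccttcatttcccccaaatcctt
Col23a1, chr11:51289670-51289919, plus strand: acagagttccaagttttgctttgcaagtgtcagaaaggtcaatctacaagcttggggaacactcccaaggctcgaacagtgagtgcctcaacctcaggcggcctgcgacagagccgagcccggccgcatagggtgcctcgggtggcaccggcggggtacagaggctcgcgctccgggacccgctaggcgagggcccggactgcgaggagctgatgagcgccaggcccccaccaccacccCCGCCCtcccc
Col3a1, chr1:45311288-45311537, plus strand: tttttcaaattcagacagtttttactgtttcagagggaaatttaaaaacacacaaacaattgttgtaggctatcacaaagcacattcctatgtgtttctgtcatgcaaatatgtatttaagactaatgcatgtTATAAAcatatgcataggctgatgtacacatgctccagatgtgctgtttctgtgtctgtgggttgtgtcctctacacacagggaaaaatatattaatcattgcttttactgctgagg
Col5a1, chr2:27886175-27886424, plus strand: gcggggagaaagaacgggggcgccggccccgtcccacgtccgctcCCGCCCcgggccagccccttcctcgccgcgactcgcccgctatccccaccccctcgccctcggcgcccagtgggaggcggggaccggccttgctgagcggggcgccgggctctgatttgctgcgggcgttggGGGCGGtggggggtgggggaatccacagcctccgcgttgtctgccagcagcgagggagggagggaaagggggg
RefSeq windows were found for 35 of the 44 genes, 38 windows in all. These are not the same genes as the 35 tested. Without a window were Col1a1, Col2a1, Col4a3, Col5a2, Col9a3, Col12a1, Col14a1, Col22a1 and Col26a1, so the motif counts say nothing about them. GGGCGG, the GC box, was present in 22 of the 38 windows and in 32.7% of the 32851 windows of all genes. CCAAT was present in 13 and TATAAA in 5, against 33.9% and 12.4% of all windows. TNGCGTG was present in 0 of the 38 and in 4.10% of all windows. Of the windows printed, Col27a1 and Col23a1 held 1 GC box each, Col5a1 held 2, and Col3a1 held a TATAAA but no GC box. These are letter matches in 250 bases, and no binding was measured.

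Genes that make, modify, bind, sense or degrade collagen were listed by role, 65 in all, of which 61 were tested. With all libraries 5 rose and 5 fell (8.20% each, against 15.9% and 13.6% of all tested genes), and without AHRKO replicate 1, 5 rose and 19 fell (31.1% fell, against 17.8% of all). Each role had only 6 to 14 tested genes. The counts per role below stand beside the same shares of all tested genes and are not read as results about a role. Of the 10 called with all libraries, 9 were called in the same direction without AHRKO replicate 1, and Mmp8 was not. Dcn, Lum, Postn and Fap stand both among them and among the fibroblast markers.

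Among genes of chain modification, 1 of 14 tested fell with all libraries and none rose. It was Plod2, a lysyl hydroxylase, which was at a median of 49.7 CPM in WT and 39.3 CPM in AHRKO, with overlap, and fell by 0.67 ± 0.24 (SE; edgeR adjusted p = 0.0485). Among genes of folding and export, 1 of 7 fell and none rose. Sec23a, a coat protein of export vesicles, was at 116 to 136 CPM in WT and 69.8 to 92.3 CPM in AHRKO, with no overlap, and fell by 0.69 ± 0.08 (adjusted p = 0.000183). Serpinh1, the collagen chaperone HSP47, was at -0.11 ± 0.19 (adjusted p = 0.690).

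Propeptide removal turns procollagen into collagen that can form fibrils, and 2 of its 7 tested genes rose while 1 fell. Pcolce, an enhancer of this step, was at 249 to 319 CPM in WT and 345 to 521 CPM in AHRKO and rose by 0.60 ± 0.10 (SE; edgeR adjusted p = 0.00195). Pcolce2, its relative, was at 14.8 to 22.0 CPM in WT and 22.1 to 78.6 CPM in AHRKO and rose by 0.99 ± 0.27 (adjusted p = 0.0163). Adamts3, a protease that removes procollagen ends, was at 1.98 to 4.02 CPM in WT and 0.618 to 1.96 CPM in AHRKO and fell by 1.33 ± 0.30 (adjusted p = 0.00679). None of these 3 genes overlapped between the groups, although the ranges of Pcolce2 and Adamts3 nearly touched. Over all tested genes, 6.03% were higher and 7.35% lower without overlap, which is also the background for the other pathway genes named without overlap.

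Of the 6 crosslinking genes, 1 rose. Tgm2, a transglutaminase, was at 184 to 318 CPM in WT and 395 to 573 CPM in AHRKO without overlap and rose by 1.05 ± 0.14 (SE; edgeR adjusted p = 0.000478). Lox, the lysyl oxidase, was at 269 to 1009 CPM in WT and 115 to 442 CPM in AHRKO (-0.91 ± 0.37, adjusted p = 0.0825) and fell by 1.11 without AHRKO replicate 1 (adjusted p = 0.0362). Of 11 collagen-binding matrix genes 1 fell: Fn1, which encodes fibronectin, was at 4399 to 6320 CPM in WT and 2758 to 5249 CPM in AHRKO and fell by 0.49 ± 0.17 (adjusted p = 0.0439). When single libraries were left out, the adjusted p reached 0.0941 for Fn1 and 0.116 for Plod2, so both calls were lost in some of those fits.

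Among collagen receptors, 1 of 9 rose and 1 fell. Itgb1, the integrin beta 1 chain, was at 1144 to 1427 CPM in WT and 901 to 1106 CPM in AHRKO without overlap and fell by 0.35 ± 0.09 (SE; edgeR adjusted p = 0.0154). Lair1, an inhibitory collagen receptor of leukocytes, was at 3.11 to 6.29 CPM in WT and 5.79 to 34.4 CPM in AHRKO and rose by 1.74 ± 0.37 (adjusted p = 0.00509), or by 1.30 without AHRKO replicate 1 (adjusted p = 0.00216). All 8 pan-leukocyte markers rose as well, with and without AHRKO replicate 1, where 15.9% and 19.1% of all tested genes rose. Their summed CPM was 264 to 481 in WT, 448 to 990 in AHRKO replicates 2 to 6 and 2675 in AHRKO replicate 1. Their part in the Lair1 value was not tested.

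Of 7 genes that degrade collagen, 1 rose with all libraries and none fell. Mmp8, a collagenase of neutrophils, was at 0.461 to 2.77 CPM in WT and 1.16 to 23.3 CPM in AHRKO and rose by 2.18 ± 0.70 (SE; edgeR adjusted p = 0.0340), but not without AHRKO replicate 1 (1.21, adjusted p = 0.0788). Without that library 4 of the 7 fell (57.1%, against 17.8% of all tested genes), namely Mmp2, Mmp14, Ctsk and Fap, with log2 fold changes from -1.03 to -0.78. With all libraries these 4 gave 0.06, -0.31, -0.24 and -0.43 in that order and did not pass.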

How the data were processed

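The authors deposited 1 table of unnormalized read counts, with a row per gene and a column for each of 12 libraries. Per the submitters' processing notes, HISAT2, SAMtools, HTSeq and DESeq2 were used with mm10; their versions, the annotation and the strand setting are not stated there. Symbols, positions and exon lengths came from GENCODE M21 (mm10) by gene identifier, matching 42462 of 43432 genes. Genes were kept by edgeR's filterByExpr, scaled by TMM and tested with the quasi-likelihood test in edgeR 4.0.16 (R 4.3.3), and p-values were adjusted by Benjamini-Hochberg across the 15449 genes that passed, with 0.05 as threshold. Each SE is the log2 fold change divided by the root of F. The pipeline was tested on simulated data. Libraries of a group differed by more than sampling noise (lowest chi-squared per degree of freedom 13.6). Errors are the spread among libraries, since depth sets counting error alone.

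Named genes were all called collagens, the 3 most abundant per kb in each class and their partner chains. Up to 4 called genes per role of the collagen pathway were also named. The remaining collagens, Serpinh1, Lox, Mmp2, Mmp14, Ctsk and Fap were named after their values were seen. So were the markers Krt19 and Sox9. Members and lists were chosen with earlier results of these data known. Alternatives were DESeq2 1.42.0, limma-voom with sample weights (limma 3.58.1), RLE and upper-quartile scaling, other filters, a block for replicate number, and each library left out in turn. Promoter windows came from RefSeq tables (GRCm38.p6). No protein sequences were used. A member of the acinar marker list is not reported here.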

Additional observations from a re-analysis of the deposited data

Results flagged for a closer look

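In 16 collagen values 1 library lay far from the other 5 of its group, by a gap test that chance meets in about 1 of 20 groups; 70 groups were checked. In AHRKO replicate 1 these were Col1a1 at 20880 CPM, Col1a2 at 16298, Col3a1 at 18004, Col4a1 at 2295, Col4a2 at 1579, Col5a1 at 2023, Col5a2 at 2215 and Col5a3 at 714 CPM. In the same library Col6a4 was at 12.6, Col6a6 at 6.59, Col13a1 at 46.4, Col14a1 at 452, Col16a1 at 417, Col23a1 at 40.9 and Col24a1 at 34.9 CPM. In each of these 15 genes it was the highest AHRKO library; the next highest had 8156 CPM of Col1a1 and 10.3 CPM of Col13a1. The last value was Col9a3 in AHRKO replicate 2, at 47.5 CPM against 11.1 CPM in the next library. No WT library met the test. The genes share libraries, so these values are not independent of each other. The share of all tested genes flagged in AHRKO replicate 1 was not counted, so the flags are not read as a trait of collagens.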

How the results depend on the processing

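Leaving out single libraries, the number of collagens that rose ran from 4 to 6 and that fell from 3 to 13, and the number of pathway genes that rose ran from 4 to 5 and that fell from 3 to 19; the highest counts of falls came without AHRKO replicate 1. With limma-voom and sample quality weights 7 of the 35 tested collagens and 11 of the 61 tested pathway genes fell, where 19.1% of all tested genes fell. The pathway falls were 3 without a filter and 2 with the replicate block. The block changed 1 collagen call, that of Col6a5; same-numbered libraries did not deviate together (correlations from -0.47 to 0.03, and 0 of 6 WT libraries matched their own number best), so the numbers were not taken as pairs. RLE and upper-quartile scaling changed no collagen call. DESeq2 called 6 collagens higher, adding Col4a4 and Col10a1. The strict filter left Col4a4, Col6a6, Col17a1 and Col26a1 untested. Sign changes occurred in 10 collagens, none of them called with all libraries: with limma-voom Col13a1 (-0.19), Col14a1 (-0.15) and Col18a1 (-0.081); with the replicate block Col7a1 (-0.059), Col8a2 (-0.15), Col14a1 (-0.0043) and Col18a1 (-0.017); and Col18a1 with upper-quartile scaling (-0.017), no filter (-0.011) and the strict filter (-0.0047). Over single libraries left out, the log2 fold change ran from -0.29 to 0.060 for Col4a1, -0.11 to 0.32 for Col4a2, -0.17 to 0.32 for Col7a1, -0.22 to 0.62 for Col8a2, -0.36 to 0.71 for Col13a1, -0.37 to 0.73 for Col14a1, -0.43 to 0.011 for Col15a1, -0.070 to 0.093 for Col18a1, -0.93 to 0.055 for Col24a1 and -0.40 to 0.045 for Col28a1. The cause was not tested. For genes under about 1 CPM, such as Col26a1 in AHRKO, depth limits precision.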
